A study of Mus musculus with 10 samples.

Results

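The genes described here are 10 genes of the fat-cell lineage: Car3, Lep, Cebpa, Cebpb, Cebpd, Fabp4, Plin1, Plin2, Plin4 and Pnpla2. They were found by symbol among the 29583 rows of the deposited gene table, and each symbol matched 1 row. MC3T3-E1 cells, an osteoblast precursor line from the skull of newborn C57BL/6 mice, were kept in standard medium with β-ecdysterone, a plant sterol, at 0, 100, 150 or 200 μM for 5 or 10 days. All groups shared the same line and passage, and the source field of the labels names bone marrow mesenchymal stem cells instead of the skull line. The table held 1 library for each dose and day, so the 6 treated libraries (3 doses on 2 days) stood as replicates against the 2 libraries at 0 μM. Another 2 libraries were labelled untreated with no time given, and they are called untreated libraries 1 and 2. The extraction protocol in the labels has n = 3, beside 1 library per dose and day, and whether each library was 1 culture or a pool is not given. Each dose and day needed a dish of its own, but no label says that the dishes were independent cultures. The tests measure only the spread between these libraries, which holds differences of dose and dish together with technical spread. No dose and day had a replicate by which these parts could be told apart. The genes were chosen by their values in treated cells against 0 μM, so their differences in that comparison are given as a description. Whether a member passed the limits for a call there is stated without a p, and nothing is supported by it. The question was whether treated cells also took on traits of fat cells.

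Fat cells form when C/EBPβ and C/EBPδ, transcription factors that act early, switch on PPARγ and C/EBPα, which then drive the genes of the mature cell. A mature fat cell stores triglyceride in droplets coated by perilipins (the Plin genes), carries fatty acids on FABP4, releases them through the lipase ATGL (Pnpla2), and secretes hormones such as leptin (Lep) and adiponectin (Adipoq). Carbonic anhydrase 3 (Car3) hydrates carbon dioxide and is abundant in fat and slow muscle. Osteoblasts and fat cells arise from shared mesenchymal precursors.

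Of the members, 7 had a promoter in the RefSeq table of build GRCm38.p6, and Car3, Cebpd and Fabp4 were not among them. The 250 bases that end at the annotated start are printed for Lep, the called gene among these 7, and for Plin2 and Plin4, a pair of perilipins that were lower together in treated cells. Each is given 5′ to 3′ on the strand of its gene, and capitals mark matches to CCAAT, TTGCNNAA (a C/EBP half-site pair), TATAAA or ACGTG on either strand. The Lep window was chr6:29059971-29060220 on the plus strand, the Plin2 window chr4:86670060-86670309 on the minus strand, and the Plin4 window chr17:56109783-56110032 on the minus strand.
Lep: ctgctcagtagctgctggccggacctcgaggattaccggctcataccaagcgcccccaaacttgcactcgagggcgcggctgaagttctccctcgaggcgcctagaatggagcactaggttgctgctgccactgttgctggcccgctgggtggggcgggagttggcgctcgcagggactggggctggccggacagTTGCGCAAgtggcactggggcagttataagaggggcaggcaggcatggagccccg
Plin2: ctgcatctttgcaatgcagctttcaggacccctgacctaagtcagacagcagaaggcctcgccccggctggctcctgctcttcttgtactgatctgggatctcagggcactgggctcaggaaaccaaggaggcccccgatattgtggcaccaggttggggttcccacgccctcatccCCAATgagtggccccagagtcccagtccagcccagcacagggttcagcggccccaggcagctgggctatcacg
Plin4: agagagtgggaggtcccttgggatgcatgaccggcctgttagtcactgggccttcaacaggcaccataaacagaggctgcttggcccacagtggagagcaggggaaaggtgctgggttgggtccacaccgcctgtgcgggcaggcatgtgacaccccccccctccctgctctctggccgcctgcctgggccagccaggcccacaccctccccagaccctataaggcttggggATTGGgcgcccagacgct
Lep held TTGCGCAA, a match to TTGCNNAA on both strands, at bases 48 to 55 counted back from the end of the window. Among 32851 windows of the same length, 9.56% held TTGCNNAA, and of the 7 member windows those of Lep and Plin1 did. Plin2 and Plin4 each held 1 CCAAT box, which 33.8% of all windows held. TATAAA was found in the Cebpa window alone among the members (12.4% of all windows), and ACGTG in none of the 7 (16.6% of all windows). These matches describe letters in the sequence, and binding was not measured.

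Values are CPM, read counts scaled to library size after TMM normalization, and levels of different genes are compared only in FPKM, the authors' value per transcript length. A gene was called when its log2 fold change passed 1 in either direction and its adjusted p from edgeR, over all genes tested, was under 0.05. The libraries held 27108562 to 58218009 counts. A floor of 3 counts, the most that a count of 0 allows, stood for 0.0592 CPM at 0 μM on day 5 and 0.0950 CPM on day 10. Both 150 μM libraries were among the deepest, with 57220036 and 58218009 counts, so the 150 μM dose cannot be told apart from depth. All 10 members passed the filter on low counts. In treated cells, 2 members, Car3 and Lep, were called higher and 0 were called lower, where 13.4% of the 16794 genes tested were called higher and 5.98% lower. Since this contrast chose the members, nothing is read from that count. The libraries are bulk RNA, in which fewer cells of a type and less RNA per cell cannot be told apart.

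**Figure D1:**
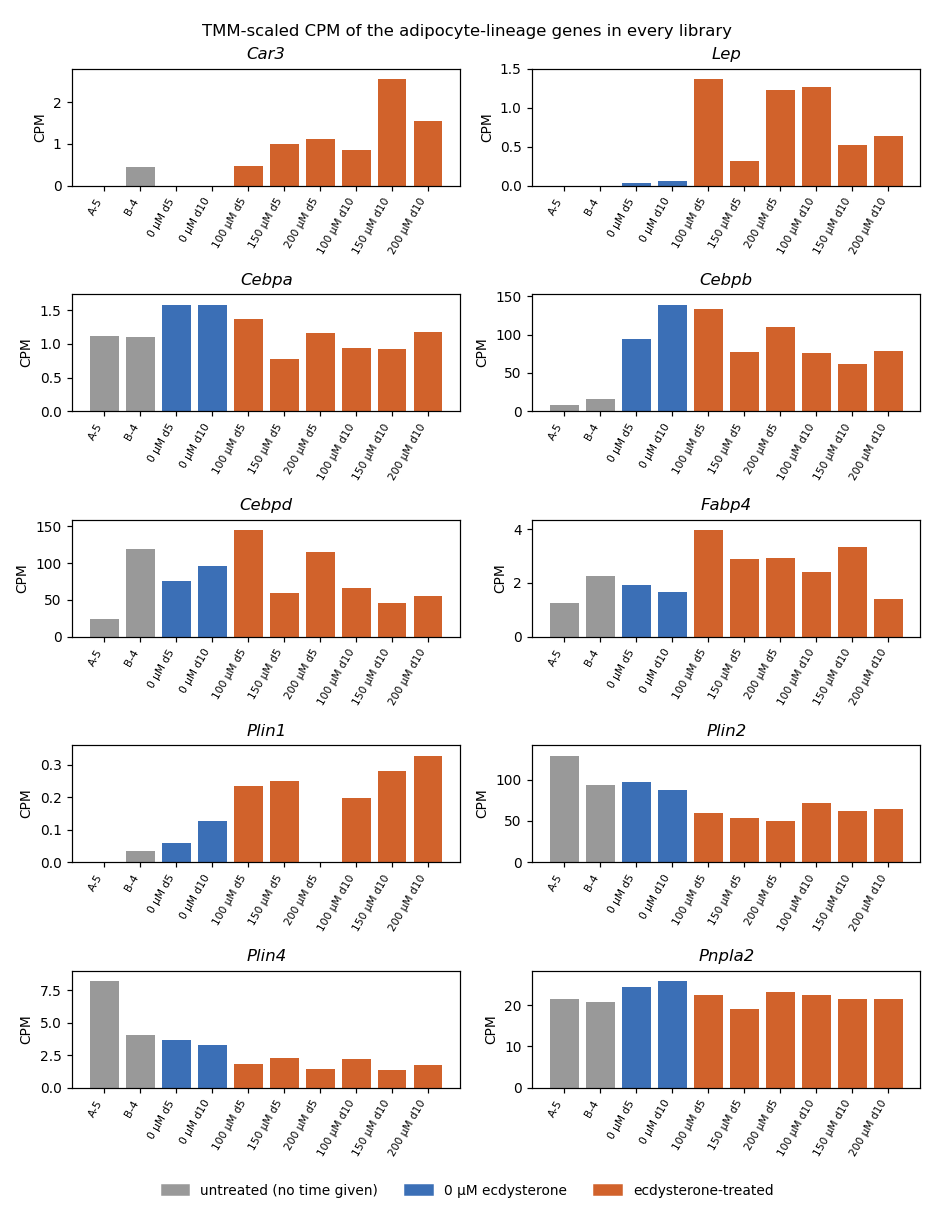
TMM-scaled CPM of each of the 10 genes (y axis, linear from 0) in every library (x axis), with untreated libraries in grey, 0 μM in blue and treated libraries in orange; each bar is 1 library. Car3 and Lep stood at or near 0 at 0 μM and between 0.316 and 2.55 CPM in treated libraries. Plin2, Plin4, Cebpa and Pnpla2 were lower in every treated library than in both 0 μM libraries. The share of all genes that separated in this way was not counted, so nothing is read from the number of members that did.

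Car3 (ENSMUSG00000027559, chromosome 3, 14863512 to 14872523 on the plus strand of GRCm38 by GENCODE M21) had 0 counts in both 0 μM libraries. On day 5 it stood at 0.466 CPM at 100 μM, 0.997 CPM at 150 μM and 1.12 CPM at 200 μM. On day 10 it stood at 0.865 CPM at 100 μM, 2.55 CPM at 150 μM and 1.56 CPM at 200 μM. Every treated library was above the floor, the lowest by 4.91 times the larger floor. The treated mean was 1.26 ± 0.724 CPM (SD, n = 6). Set against that floor, which is the one of a single 0 μM library, Car3 was at least 13.3-fold higher. At each dose the day 10 library was higher than the day 5 library. These levels rested on 14 to 136 counts a library, which makes Car3 a transcript of low abundance even where it was highest (1.30 FPKM).

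Lep (ENSMUSG00000059201, chromosome 6, 29060220 to 29073877 on the plus strand), the gene of the fat-cell hormone leptin, had 2 counts in each 0 μM library, or 0.0394 CPM on day 5 and 0.0633 CPM on day 10. On day 5 it stood at 1.36 CPM at 100 μM, 0.316 CPM at 150 μM and 1.22 CPM at 200 μM. On day 10 it stood at 1.26 CPM at 100 μM, 0.525 CPM at 150 μM and 0.635 CPM at 200 μM. All 6 treated libraries were above both 0 μM libraries, and the lowest of them, 150 μM on day 5, held 19 counts. Pooled over libraries, 190 counts in treated cells against 4 at 0 μM gave a ratio of 15.6, with an exact 95% binomial interval of 5.98 to 57.7 that covers counting error only. Without the 0 μM library of day 5, Lep was no longer called, with a log2 fold change of 3.56 in place of 4.06 (SE 0.87). The 3 deepest treated libraries (53666325 to 58218009 counts) held 0.316 to 0.635 CPM and the other 3 held 1.22 to 1.36 CPM, and the part of depth in this was not tested. Lepr, the leptin receptor, was also called higher, at 0.907 and 0.950 CPM without ecdysterone and 2.52 ± 0.636 CPM (SD, n = 6) with it, and it too lost its call without the 0 μM library of day 5 (log2 fold change 1.17).

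**Figure D2:**
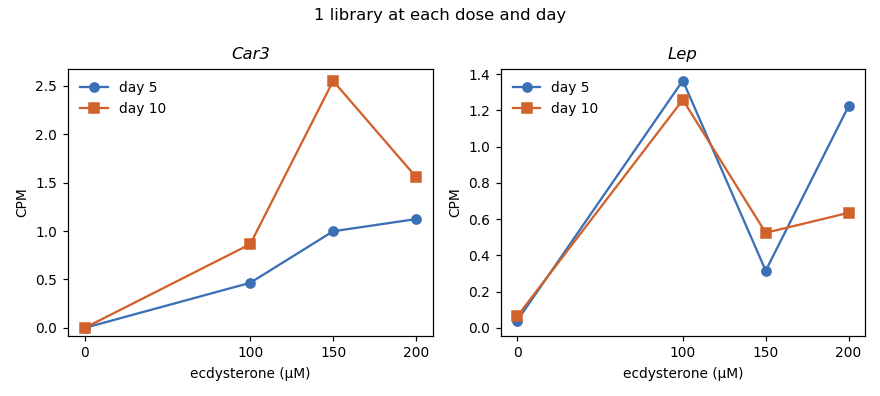
CPM (y axis) of Car3 (left) and Lep (right) against the dose of ecdysterone in μM (x axis), with circles for day 5 and squares for day 10; each point is 1 library with no error bar. Car3 was highest at 150 μM on day 10 (2.55 CPM) and Lep at 100 μM on day 5 (1.36 CPM), and neither rose steadily with dose on both days.

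Among the transcription factors, none of the members was called in treated cells. Cebpb (ENSMUSG00000056501, chromosome 2), which encodes the early factor C/EBPβ, stood at 93.9 and 139.2 CPM at 0 μM on days 5 and 10. In treated cells it stood at 133.5, 76.8 and 109.7 CPM on day 5 and at 76.6, 61.2 and 79.0 CPM on day 10, at 100, 150 and 200 μM in that order. The groups overlapped on day 5, where the libraries at 100 and 200 μM were above 0 μM, and on day 10 all 3 doses were below it. Cebpd, which encodes its partner C/EBPδ, also overlapped on day 5 and was below 0 μM at all 3 doses on day 10. It stood at 76.1 and 96.3 CPM at 0 μM, at 144.9, 60.03 and 115.5 CPM in treated cells on day 5, and at 66.2, 46.0 and 55.6 CPM on day 10. The log2 fold changes over both days were -0.43 (SE 0.25) for Cebpb and -0.21 (SE 0.33) for Cebpd. Without the 0 μM library of day 10 both turned positive, at 0.17 and 0.48, so their direction over both days rested on 1 library.

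Cebpa, the factor that maintains the mature fat cell, was low throughout. It stood at 1.58 CPM in each 0 μM library, and in treated cells at 1.36, 0.781 and 1.16 CPM on day 5 and at 0.943, 0.918 and 1.17 CPM on day 10. All 6 treated libraries were below both 0 μM libraries, with a log2 fold change of -0.59 (SE 0.28) that did not reach the limits for a call. Pparg, the factor that defines the lineage and no member, stood at 0.138 and 0.0317 CPM at 0 μM and between 0.0786 and 0.319 CPM in treated cells, which rested on 1 to 17 counts a library, and it was not called. In FPKM, which compares genes per length, the mean level in treated cells was 52.4 ± 16.4 for Cebpb, 19.1 ± 9.52 for Cebpd, 0.348 ± 0.0705 for Cebpa and 0.0825 ± 0.0432 for Pparg (SD, n = 6). The early factors were thus present at far higher levels than the late pair in the same libraries, and the order of these 4 means was the same in the 0 μM libraries (70.4, 20.9, 0.542 and 0.0317 FPKM).

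None of the 3 droplet coat genes was called. Plin2, a perilipin found on droplets of most cell types, stood at 96.8 and 87.8 CPM at 0 μM. In treated cells it stood at 59.2, 53.8 and 49.8 CPM on day 5 and at 71.8, 62.4 and 64.7 CPM on day 10, so no treated library reached either 0 μM library. Plin4, a perilipin of fat cells and muscle, stood at 3.69 and 3.26 CPM at 0 μM, at 1.83, 2.29 and 1.45 CPM in treated cells on day 5 and at 2.24, 1.39 and 1.75 CPM on day 10, again with no overlap. The log2 fold changes were -0.63 (SE 0.11) for Plin2 and -0.93 (SE 0.24) for Plin4, short of the fold limit, and both would have been called lower without it. For Plin4 that call without a limit was lost when the 0 μM library of day 5 (-0.88) or of day 10 (-0.98) was left out. Within the limits, Plin4 was called lower when the treated library at 150 μM on day 5 (-1.01) or at 100 μM on day 10 (-1.02) was left out. Plin1, the perilipin particular to mature fat cells, was near the floor, with 3 and 4 counts at 0 μM and 0 to 17 counts in treated libraries. Pooled, its ratio of treated to 0 μM was 2.76, with a binomial interval of 1.26 to 7.17, and it was not called. The ratio of the group means was 2.31 in CPM and 1.31 in FPKM. The treated library at 200 μM on day 5 had 0 counts of Plin1, so the groups overlapped. With their promoters printed above, Plin2 and Plin4 shared a CCAAT box and no other motif searched.

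Fabp4, the fatty acid carrier of fat cells, stood at 1.91 and 1.68 CPM at 0 μM. In treated cells it stood at 3.96, 2.88 and 2.91 CPM on day 5 and at 2.40, 3.34 and 1.41 CPM on day 10. The library at 200 μM on day 10 was below both 0 μM libraries and the other 5 were above, with a log2 fold change of 0.63 (SE 0.33) and no call. Pnpla2, which encodes the lipase that starts the breakdown of stored triglyceride, was the steadiest member. It stood at 24.4 and 25.8 CPM at 0 μM and between 19.0 and 23.3 CPM in treated cells, all below 0 μM, with a log2 fold change of -0.21 (SE 0.10) and no call.

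The comparison of days within treated cells was not used to choose the genes, and it can be tested. It asked whether the members changed between day 5 and day 10 of treatment, with 3 libraries on each day. No member was called by edgeR or by DESeq2, where 0.905% of the 16020 genes tested were called higher on day 10 and 0.144% lower. The smallest adjusted p among members (edgeR's quasi-likelihood test) was that of Cebpd, 0.104, with a log2 fold change of -0.93 (SE 0.27). Its mean was 106.8 ± 43.1 CPM on day 5 and 55.9 ± 10.1 CPM on day 10 (SD, n = 3), and the level was lower on day 10 at each dose, although the library at 150 μM on day 5 lay within the day 10 range. Without that library Cebpd was called lower on day 10, with a log2 fold change of -1.22 and an adjusted p of 0.0137. With dose as a factor, which sets the days against each other at each dose, the adjusted p was 0.0246 for Cebpd (-0.86) and 0.0349 for Cebpb (-0.53) by edgeR, and both stayed short of the fold limit. Cebpb fell short of a call with -0.56 (SE 0.18, adjusted p = 0.143), and Plin2 with 0.29 (SE 0.10, adjusted p = 0.158). In DESeq2 the adjusted p of Cebpb was 0.0339 (-0.56), short of the fold limit. With a filter of at least 1 count in total, edgeR gave 0.0157 for Cebpb (-0.56) and 0.00169 for Cebpd (-0.93). These too stayed short of the fold limit. Cebpb was lower and Plin2 higher on day 10 at each dose. Car3 was higher on day 10 at each dose, with a log2 fold change of 0.96 (SE 0.44), but the adjusted p was 0.285. Lep differed by -0.26 (SE 0.55, adjusted p = 0.855), and the adjusted p of the other 5 members lay between 0.515 and 0.946. At an unadjusted p under 0.05, 3 members passed in edgeR (Cebpb, Cebpd and Plin2) and 4 in DESeq2, which added Car3. Over all 16020 genes tested, 2930 passed that limit in edgeR and 2881 in DESeq2. The adjusted p of the members does not show that their levels were equal on both days.

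**Figure D3:**
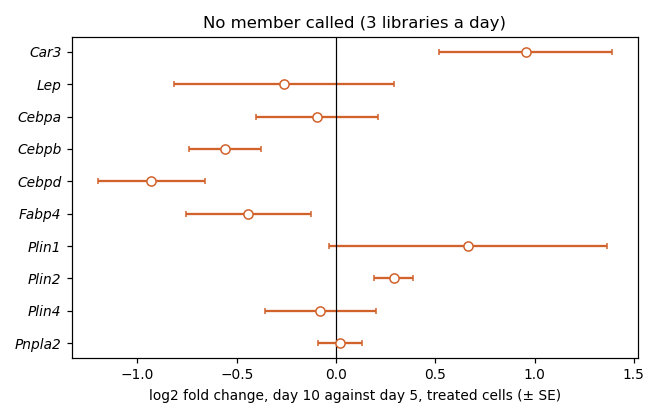
Log2 fold change of day 10 against day 5 in treated cells (x axis) for each member (y axis); open circles are estimates from 3 libraries a day and bars are standard errors. Cebpd lay lowest (-0.93) and Car3 highest (0.96), and no member was called.

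A difference between the days in the response to treatment was tested in a model with all 8 libraries, in which 0 μM had 1 library a day. It reuses the treated and 0 μM values that chose the members, so its member results are a description and support nothing. Of the 17799 genes tested, 0.0112% were called, and no member was by edgeR or DESeq2. Cebpb had a difference of -1.13 (SE 0.37) and Cebpd one of -1.27 (SE 0.54) on the log2 scale, both lower relative to 0 μM on day 10. Plin2 had a difference of 0.43 (SE 0.20). Car3 gives no usable estimate here, since both 0 μM libraries were at 0. Across doses within treated cells, 0.006% of the 16664 genes tested showed a trend, and no member did in edgeR or DESeq2. No member passed an unadjusted p under 0.05 either, where 391 genes did in edgeR and 404 in DESeq2. The slope per 100 μM was 0.96 (SE 0.55) for Car3 and -0.55 (SE 0.64) for Lep on the log2 scale, both with an adjusted p of 0.997 by edgeR.

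The untreated libraries stood apart from 0 μM in several members. Cebpb stood at 7.59 and 16.05 CPM in untreated libraries 1 and 2, below every 0 μM and treated library. Lep had 0 counts in both. Car3 had 0 counts in untreated library 1 and 13 counts (0.437 CPM) in untreated library 2, close to the lowest treated library. Cebpd differed between the pair, with 24.6 and 119.8 CPM, and so did Plin4, with 8.18 and 4.03 CPM. Set against the untreated libraries instead of 0 μM, Lep remained called higher, Cebpb was called higher with a log2 fold change of 2.93, Plin4 was called lower with -1.74, and Car3 was no longer called (2.54). Age in culture is not given for these libraries, so time and treatment cannot be told apart in that alternative.

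The wider fat-cell programme was described by lists of 122 further genes, of which 91 were tested. Of these, 12 were called higher and 10 lower in treated cells, where 13.4% of all genes tested were called higher and 5.98% lower. The median log2 fold change was -0.06, beside a median of 0.05 over all genes tested. None of the 91 was called between days in treated cells.

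Of the 13 genes of fatty acid synthesis tested, 5 were called lower, 1, Thrsp, was called higher, and 7 were not called. Over all genes tested, 5.98% were called lower and 13.4% higher. The list median was -0.68. Fasn, the fatty acid synthase, stood at 602.8 and 628.0 CPM at 0 μM and at 287.6 ± 33.2 CPM (SD, n = 6) in treated cells. Fads2, a desaturase of polyunsaturated fatty acids, fell by 2.21 on the log2 scale (SE 0.18), and Elovl6, which lengthens saturated chains, fell by 1.42 (SE 0.17). No treated library of these 3 genes reached either 0 μM library. Untreated library 2 stood within or next to the treated range in all 3, at 256.9 CPM of Fasn, 24.3 CPM of Fads2 and 49.5 CPM of Elovl6, and none of the 3 was called against the untreated libraries. Fasn also lost its call with untreated and 0 μM libraries together (-0.86). The untreated pair disagreed, since the whole list summed to 912.9 FPKM in untreated library 1 and 415.9 FPKM in untreated library 2. It summed to 683.4 and 691.4 FPKM at 0 μM and to between 312.1 and 529.4 FPKM in treated libraries.

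In uptake and binding of fatty acids, 2 of the 13 genes tested were called higher and 2 lower. Fabp5, a carrier related to Fabp4, fell from 84.8 and 116.7 CPM to 23.8 ± 5.98 CPM (SD, n = 6), and Angptl4, a secreted inhibitor of lipoprotein lipase, fell from 4.16 and 4.53 CPM to 0.384 ± 0.257 CPM. Neither was called against the untreated libraries. Vldlr, the receptor for very low density lipoprotein, was called higher at 84.2 ± 27.8 CPM against 29.1 and 54.0 CPM, but the groups overlapped. Its call was lost under DESeq2, under library totals without TMM, with the untreated libraries as or among the controls (2.03 and 1.45), and without any 1 of 4 libraries: 0 μM on day 5 (log2 fold change 0.51), 100 μM on day 5 (0.92), 200 μM on day 5 (0.98) and 100 μM on day 10 (0.84). Cd36, a fatty acid transporter, was also called higher and stayed under 0.5 CPM in every library.

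Of the 14 transcription factors of the list tested, members included, 3 were called higher and 0 lower. Besides the pair described next, Ppargc1a, a coactivator of PPARγ, was called and stayed under 0.8 CPM in every library. Klf15, a factor that acts late in fat-cell formation and also responds to glucocorticoid, rose from 0.178 and 0.0633 CPM to 2.16 ± 0.627 CPM (SD, n = 6). Zfp423, which marks committed precursors of fat cells, rose from 21.2 and 17.9 CPM to 46.3 ± 8.63 CPM. Zfp521, which opposes Zfp423 and belongs to the list of inhibitors, rose from 22.9 and 29.7 CPM to 95.3 ± 16.9 CPM. Nr2f2, another of the 11 inhibitors tested, fell from 151.7 and 183.9 CPM to 56.9 ± 16.9 CPM. Zfp423 and Zfp521 were both called higher, while Nr2f2 was called lower. Over all genes tested, 13.4% were called higher and 5.98% lower, and nothing is read from the number of factors called. Against the untreated libraries, Zfp423 (0.68) and Nr2f2 (-0.61) were not called, and Zfp423 was not called with both kinds of control together (0.94).

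Among the 11 genes of triglyceride synthesis tested, 2 were called higher and 0 lower. Lpin3, a phosphatidate phosphatase, rose from 5.21 and 5.95 CPM to 19.9 ± 2.79 CPM (SD, n = 6), and Gpd1, which supplies glycerol 3-phosphate, was called at 1.58 ± 0.811 CPM against 0.532 and 0.665 CPM. The groups overlapped for Gpd1, and its call was lost without the 0 μM library of day 5 (log2 fold change 1.69) or of day 10 (0.97), and without the treated library at 150 μM on day 5 (1.20), 200 μM on day 10 (1.20) or 150 μM on day 10 (1.27). It was also lost with no day covariate (1.42), against the untreated libraries (0.32) and with both kinds of control together (0.78). Of 10 droplet genes tested, 1 was called, Cavin1, a coat protein of caveolae, with 362.5 ± 59.6 CPM in treated cells and 680.2 and 776.6 CPM at 0 μM. Its log2 fold change of -1.03 lay at the limit, and the call was lost without the 0 μM library of day 10 (-0.75) and without the treated library at 150 μM on day 5, 100 μM on day 10 or 200 μM on day 10 (-0.99 in each case). Against the untreated libraries Cavin1 stood at -0.11 and with both kinds of control together at -0.62, neither called, and the filter of 10 counts in every library also ended the call (-0.98). Of the 9 genes of lipolysis tested, none was called. Among 11 adipokines and hormone receptors tested, Lep and Lepr were called higher and none lower.

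Of 9 carbonic anhydrases tested, 3 were called higher and 1 lower. Besides Car3, Car14 and Car15 were called, both under 0.9 CPM in every library. Car9, a membrane-bound carbonic anhydrase known as a target of hypoxia signalling, fell from 69.8 and 61.6 CPM to 4.08 ± 1.17 CPM (SD, n = 6), a log2 fold change of -4.04 (SE 0.18) with no overlap. Car3 and Car9 thus moved in opposite directions. The family summed to 63.5 and 69.2 FPKM at 0 μM and to between 29.9 and 37.6 FPKM in treated libraries.

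**Figure D4:**
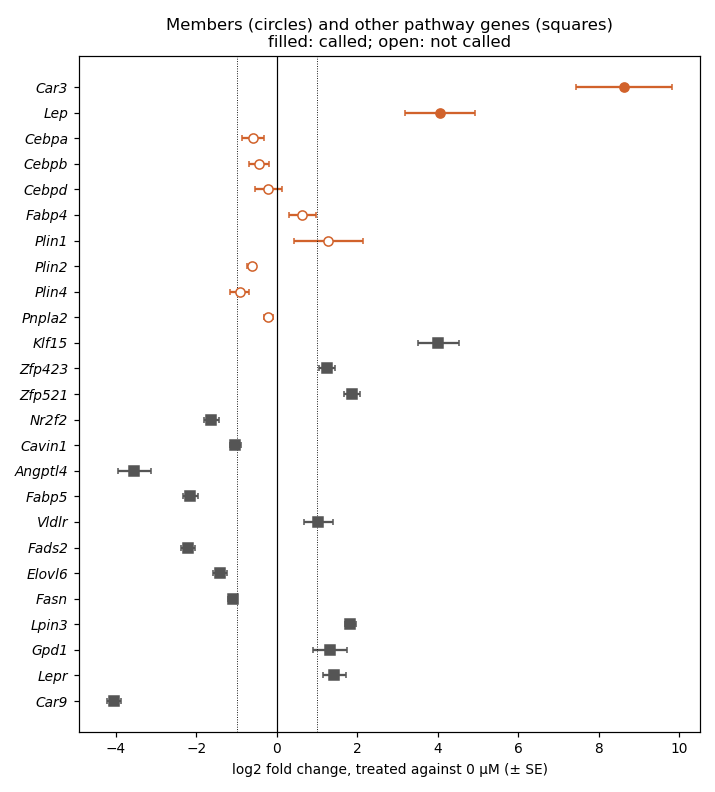
Log2 fold change of treated cells against 0 μM (x axis) with its standard error for the 10 members (circles) and for the pathway genes named by rule (squares); filled symbols were called and open ones were not, and dotted lines mark a log2 fold change of 1 in each direction. The fitted value of Car3 depends on the small count added to a group at 0 and is no bound; Car3 and Lep are the called members, and Car9 (-4.04) lies lowest.

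The defining genes of a mature fat cell were checked as a list of 10 markers, 3 of which (Lep, Plin1 and Fabp4) are members. Of these, 5 passed the filter and 1, Lep, was called. Cfd had 0 counts in every library. Adipoq had 0 counts at 0 μM and 0 to 0.198 CPM in treated libraries, with 3 of the 6 at 0, and it did not pass the filter, like Cidec, Retn and Slc2a4. The list summed to 4.77 to 7.21 FPKM in treated libraries, beside 4.60 and 4.78 FPKM at 0 μM and 3.97 and 5.51 FPKM in the untreated pair. Of 6 brown fat markers, Ucp1 and Cox8b had 0 counts throughout. The brown fat list summed to 0.258 to 0.471 FPKM in treated libraries, above the 0.165 and 0.227 FPKM at 0 μM, all at low levels. The 10 osteoblast markers summed to 3433 to 6156 FPKM in treated libraries and to 4386 and 5126 FPKM at 0 μM, and 4 of the 10 were called higher (Runx2, Sp7, Alpl and Ibsp) and 1 lower (Dmp1), beside 13.4% and 5.98% of all genes tested.

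Some markers of other cell types were also called higher in treated cells, as were 13.4% of all genes tested. Of the 8 macrophage markers, 3 of 5 tested were called higher, led in level by Lyz2 (46.4 ± 12.5 CPM, SD, n = 6, against 15.5 and 28.5 CPM) and then Mrc1 (0.876 ± 0.182 CPM). The list summed to 22.8 to 42.6 FPKM in treated libraries and to 11.99 and 20.9 FPKM at 0 μM, while Ptprc and Adgre1 had 0 counts at 0 μM and stayed at or under 0.250 CPM in treated libraries. Of 6 endothelial markers, 2 of 4 tested were called higher (Cdh5 and Tek), with sums of 0.454 to 0.628 FPKM in treated libraries and 0.180 and 0.254 FPKM at 0 μM. Of 7 chondrocyte markers, 1 of 5 tested was called higher (Comp), with sums of 19.2 to 32.5 FPKM in treated libraries and 18.8 and 20.7 FPKM at 0 μM. Of 10 muscle markers, 1 of 5 tested was called higher (Ckm, 1.27 ± 0.427 CPM against 0.0789 and 0.0950 CPM), with sums of 1.35 to 1.58 FPKM in treated libraries and 0.848 and 1.33 FPKM at 0 μM. The muscle list summed to 0.61 FPKM in untreated library 1 and to 2.78 FPKM in untreated library 2, above every treated library. The part of such cells in the values of Car3 and Lep was not tested.

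**Figure D5:**
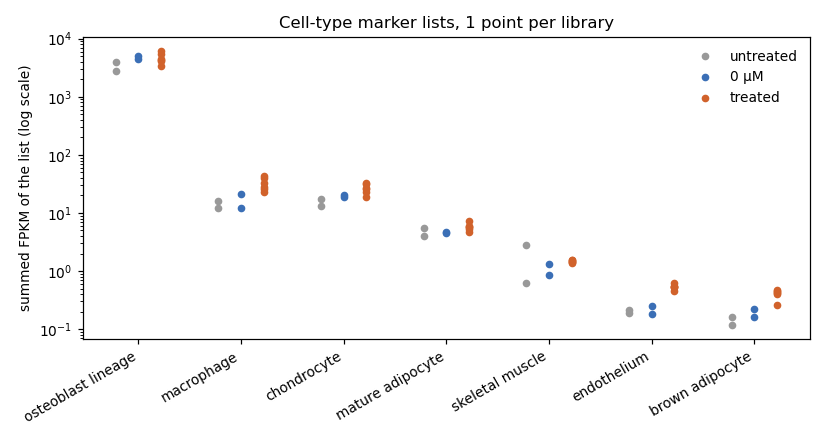
Summed FPKM of each marker list (y axis, log scale) for 7 cell types (x axis), with 1 point per library in grey (untreated), blue (0 μM) and orange (treated). The mature adipocyte list stayed between 3.97 and 7.21 FPKM in all 10 libraries, far below the osteoblast list, which lay between 2803 and 6156 FPKM.

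Across the 8 libraries compared, the genes whose log2 CPM ran most like that of Car3, among 11880 genes with a mean of at least 1 CPM, were Fancc (Pearson r = 0.994), Lrp4 (0.994) and Smpd3 (0.992). For Lep they were Clk3 (0.991), Slc52a3 (0.990) and Gm11127 (0.989). These correlations are a description over 8 libraries that differ in depth and treatment. Car3 and Lep were chosen by their difference between treated cells and 0 μM, and a gene with a like difference correlates with them. Nothing further is read from the correlations. Lrp4, a co-receptor of Wnt signalling in bone, stood at 225.5 ± 83.5 CPM (SD, n = 6) in treated cells and at a mean of 47.1 CPM at 0 μM. Smpd3, a neutral sphingomyelinase needed for mineralization of bone, stood at 27.2 ± 10.2 CPM and at a mean of 4.11 CPM.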

How the data were processed

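MC3T3-E1 mRNA was enriched on oligo(dT) beads, and libraries were made with the TruSeq kit and sequenced on the Illumina platform. Per the labels, HISAT2 2.0.4 and GATK 3.2-2 are listed in the submitters' processing notes, and the counting program, genome build and annotation are not given in the sources used here. For 10 libraries the authors deposited raw read counts per gene and, beside them, FPKM (reads per transcript length and library size). The table also holds 39 columns of the authors' own comparisons between libraries (p-values, fold changes and calls), which were not used.

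Counts were tested with edgeR 4.0.16 (quasi-likelihood, TMM, filterByExpr) in R 4.3.3 with limma 3.58.1, and with DESeq2 1.42.0 as an alternative, with Benjamini-Hochberg adjustment over all genes tested. Treated cells were compared with 0 μM with day as a covariate. The comparison of days, the difference between days and the trend with dose were fitted separately. The tests of treated cells against 0 μM and of days were run on simulated counts, drawn independently for each library. Only genes with a mean over 1 CPM were changed there. The simulation therefore does not cover genes of low counts, or libraries that may not come from independent cultures. Library totals ran from 27108562 to 58218009 counts, and floors of 3 counts cover counting error only. Promoters and positions came from RefSeq (GRCm38.p6) and GENCODE M21 (GRCm38), and positions were matched by Ensembl identifier. Figures were drawn with matplotlib 3.10.9 from tables read with pandas 2.3.3 in Python 3.11.15.

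The members and gene lists were chosen with earlier results of these data known. The genes named were the 10 members, Pparg and Adipoq, up to 3 called genes of each pathway list with the largest fold change and a mean of at least 1 CPM, called markers of other cell types (by count, with the 2 highest levels), and the 3 genes most like Car3 and Lep. Thrsp, Cd36, Car14, Car15, the remaining called markers and the markers at or near 0 were named after their values were seen, as were genes given for a contrast with a member. The alternatives changed the tool (DESeq2), the scaling (unscaled library totals, or the size factors of DESeq2), the filter on low counts (at least 1 count in total, or 10 counts in every library), the fold limit, the day covariate, the control (untreated libraries instead of 0 μM, or both together) and dose as a factor, and left out each library in turn. A covariate for the deepest treated libraries was added after the data were seen.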

Additional observations from a re-analysis of the deposited data

Results flagged for a closer look

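Some members stood higher in an untreated library, which the main comparisons did not use, than in both 0 μM libraries by more than counting error. Car3 stood at 0.437 CPM (13 counts) in untreated library 2, where both 0 μM libraries had 0 counts. Cebpd stood at 119.8 CPM in untreated library 2, and at 76.1 and 96.3 CPM at 0 μM. Plin2 stood at 129.2 CPM and Plin4 at 8.18 CPM in untreated library 1, against at most 96.8 and 3.69 CPM at 0 μM. No member had a treated library that stood apart by Dixon's test (6 libraries, 10 genes), which chance passes for about 1 group in 20.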

How the results depend on the processing

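Since treated cells against 0 μM chose the members, their calls under other settings describe them and support nothing. With at least 10 counts required in every library, Car3 and Lep were filtered out and 0 members were called higher. Lep lost its call without the 0 μM library of day 5, and Car3 against the untreated libraries. Leaving out each library in turn, 1 to 2 members were called higher and 0 to 1 lower. Cebpb ranged from -0.95 to 0.17 and Cebpd from -0.79 to 0.48 in treated cells against 0 μM over the same runs. Without a fold limit, 2 members, 3490 genes and 28 other pathway genes were called lower and 3790 genes and 23 other pathway genes higher. The 10-count filter left 1099 genes and 7 other pathway genes called higher.

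Against the untreated libraries, 1078 genes and 7 other pathway genes were called higher, and 460 genes, 1 member and 1 other pathway gene lower, and Cebpb (2.93), Cebpd (0.18) and Pnpla2 (0.0498) turned positive. With untreated and 0 μM libraries together, 1286 genes and 7 other pathway genes were called higher, and 453 genes, 1 member and 6 other pathway genes lower, with Cebpb at 0.49 and Cebpd at 0.0498.

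Between days, 218 genes were called higher and 60 lower with DESeq2, 274 and 72 with at least 1 count in total, and 333 and 115 without a fold limit. Library totals without TMM gave 72 lower calls and -0.11 for Pnpla2. The covariate for depth, chosen after seeing the data, gave 44 lower calls, 0.39 for Lep and 0.0327 for Cebpa. Leaving out 1 library gave 18 (without 200 μM on day 5) to 186 genes called higher, 0 (without the same library) to 38 lower, and 0 to 1 members. Over these runs Lep ranged from -0.73 to 0.0922, Cebpa from -0.30 to 0.0881, Plin4 from -0.26 to 0.12 and Pnpla2 from -0.0625 to 0.0769; without 100 μM on day 10, Pnpla2 was -0.0025. The difference between days gave 70 calls with DESeq2, 100 with at least 1 count in total, 1 with the 10-count filter and 0 to 9 with a library left out. The dose trend gave 2 calls with DESeq2, 108 with at least 1 count in total, 0 with the 10-count filter, 0 without the day covariate and 0 to 1 with a library left out. The cause of these shifts was not tested. The 0 μM group had 1 library a day, and low counts limit Car3, Lep, Plin1 and Pparg.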
